A study of Ovis aries with 16 samples.

Results

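Axon guidance ligands and receptors are the secreted and membrane-bound cues that steer growing nerve fibres, and the cell-surface proteins that read them. The genes were chosen by symbol alone: slits, robos, semaphorins, plexins, neuropilins, netrins, UNC5 receptors and DCC, EPH receptors and ephrins. Of the 28524 genes in the count table, 66 carried such a symbol, 35 for ligands and 31 for receptors. They were measured by RNA sequencing in fat of female sheep 21 months old. The mothers of the control ewes were injected under the skin with corn oil, and those of the BPA ewes with 0.5 mg/kg/day of bisphenol A (BPA, a chemical of plastics with weak oestrogen-like activity) in corn oil, each day from day 30 to day 90 of a pregnancy of about 147 days. Subcutaneous fat (SAT) came from the sternal region and visceral fat (VAT) from the mesenteric fat around the ventral sac of the rumen. The 4 groups were SAT control, SAT BPA, VAT control and VAT BPA, with 4 libraries each. All ewes had been kept on a maintenance diet, and the tissue was taken 24 hours after the last prostaglandin F2α injection of a synchronized cycle.

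The ligand families are described here with their best-known receptors, though binding also crosses families. Slits are large secreted proteins that bind robos such as ROBO1. Netrins bind DCC, which often mediates attraction, and the UNC5 receptors, which mediate repulsion. Semaphorins signal through plexins, and the secreted class 3 semaphorins mostly need a neuropilin as co-receptor. Ephrins are tethered to the membrane, by a lipid anchor in class A and by a transmembrane stretch in class B, and bind the EPH receptor tyrosine kinases on the neighbouring cell. In fat these proteins are known mainly from blood vessels, nerves, immune cells and the adipocytes themselves: ROBO4, UNC5B, PLXND1 and the EFNB2 and EPHB4 pair from endothelium, and SLIT2 and SEMA3C as factors secreted by fat cells.

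Libraries are named by the number in their title. Some numbers occur in both depots, but the depot comparisons use the libraries without pairing them by number. Groups are listed in the order 902, 924, 928 and 931 for SAT control, 918, 922, 941 and 977 for SAT BPA, 902, 908, 924 and 928 for VAT control, and 910, 918, 977 and 984 for VAT BPA. The labels do not say that each library came from a separate animal, so p-values measure the spread between these libraries. Totals were 3.05 to 6.22 M counts in SAT and 6.77 to 14.31 M in VAT, so that depot and depth cannot be told apart, and a depot comparison at equal totals is given in the closing section. CPM is the usual scaling of counts to a common library total, here with TMM factors. Of 10 adipocyte markers 0 were at 0 in any group. They summed to 11099 to 21637 CPM in SAT control, 13995 to 22993 in SAT BPA, 21215 to 30302 in VAT control and 15078 to 26195 in VAT BPA, with 3 of 10 called higher in VAT of control ewes and 0 in BPA ewes. Stromal progenitor markers summed to 2679.8 to 4072 CPM in SAT control, 1439 to 2409 in SAT BPA, 1532 to 1580.1 in VAT control and 1123 to 3182 in VAT BPA, with 2 of 8 called lower in VAT of control ewes and 1 in BPA ewes. Mesothelial markers, from the lining of the abdominal cavity, summed to 4.30 to 9.36 CPM in SAT control, 1.86 to 5.62 in SAT BPA, 59.8 to 131 in VAT control and 31.6 to 344 in VAT BPA, and 1 of the 9, LRRN4, was at 0 in every SAT library. VAT BPA 977 stood apart, with 344 CPM of mesothelial and 192 CPM of lymphocyte markers. Among VAT libraries it also had the most stromal progenitor (3182 CPM) and skeletal muscle markers (75.5 CPM). It had the fewest adipocyte markers (15078 CPM) and the lowest total (6.77 M) of the VAT libraries. SAT controls 902 and 924 had 178 and 237 CPM of lymphocyte markers against 81.8 and 94.3 in the other two. Schwann cell and nerve markers summed to 216 to 470 CPM in SAT control and 387 to 758 in VAT control. In BPA ewes they summed to 211 to 335 CPM in SAT and 295 to 524 in VAT. Of 6 tested, 1 was called higher and 1 lower in VAT of control ewes, and 1 higher in BPA ewes. Their part in the depot differences was not tested.

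All 66 genes had a count in at least 1 library and 53 in all 16, and together they took 0.298 to 0.419% of a library's counts. Between genes, levels were compared as CPM per kilobase of the deposited gene length, averaged over the 16 libraries. In 6 of the 9 families (slits, robos, neuropilins, netrins, UNC5 with DCC, and EPH receptors) a gene exceeded all its relatives together. NRP1, the neuropilin that serves both semaphorins and VEGF, had the highest level of the 66 at 95.6 CPM per kilobase, which was 89.4% of the neuropilin total. NTN1, the classical netrin, followed with 71.4 and 89.2% of the netrins, and ROBO4, the endothelial robo, with 42.6 and 92.9% of the robos. PLXNB2, a receptor of class 4 semaphorins, and PLXND1, the receptor of SEMA3E, were nearly level at 36.9 and 36.5 CPM per kilobase. EFNB1 led the ephrins at 28.3, SEMA3B the semaphorins at 27.8, EPHB4 the EPH receptors at 23.5 and UNC5B its family at 4.40. SLIT2 (14.4) and SLIT3 (12.9) were close over all libraries but not within a depot.

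At the other end, 9 of the 66 averaged under 1 CPM. Of the 66, 58 had enough counts to be tested in at least 1 comparison. The remaining 8 were the ligands SLIT1, NTN3, NTN5 and EFNA3 and the receptors ROBO3, PLXNB3, UNC5A and EPHA8. EPHA8 had 4 counts in all, and NTN5 was at 0 in all 8 SAT libraries. These genes were not detectable as different at this depth.

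**Figure D1:**
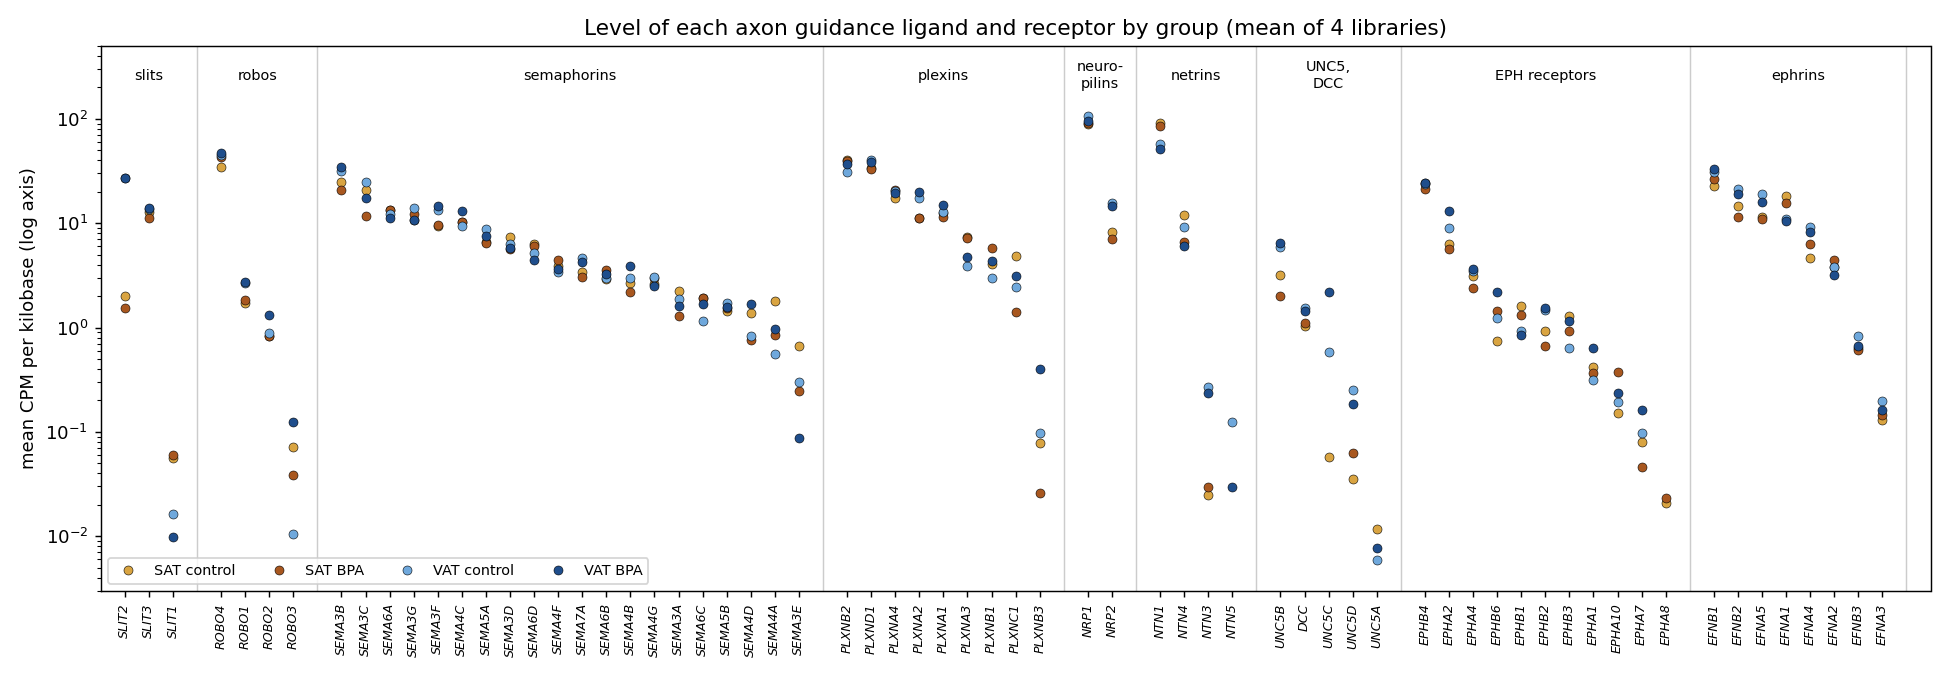
Mean level of each of the 66 genes in CPM per kilobase (log axis), by family and in order of level, with 1 point per group of 4 libraries; group means of 0 are not drawn. SLIT2, UNC5C and NRP2 show the VAT groups (blue) above the SAT groups (brown), while NRP1, NTN1 and ROBO4 stand far above the rest of their families in all 4 groups.

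Depot was compared within control ewes and within BPA ewes, which are separate libraries from separate groups; a log2 fold change above 0 means a higher level in VAT. A gene was called at a Benjamini-Hochberg adjusted p under 0.05 over all genes tested. In control ewes 11 of 55 tested ligands and receptors were called (20.0%), against a background of 13.3% of all 14456 genes tested. VAT was higher for 9 of them (SLIT2, UNC5C, EFNA4, NRP2, UNC5B, EFNA5, PLXNA2, EFNB2 and SEMA3F), where 7.17% of all genes were called higher. It was lower for 2 (PLXNA3 and EFNA1), where 6.16% of all genes were called lower. In BPA ewes 5 of 52 were called (9.62%), near the background of 9.07% of 13782 genes. All 5 were higher in VAT (SLIT2, UNC5B, EPHA2, NRP2 and PLXNA2), where 5.13% of all genes were called higher and 3.94% lower. An unadjusted p under 0.05 was reached by 21 of the 55 and 14 of the 52, against 29.5% and 27% of all genes. The depots did not overlap in 9 genes higher and 3 lower in VAT of control ewes (10.2% and 9.74% of all genes), and in 6 higher and 2 lower in BPA ewes (9.58% and 9.03%). The median log2 fold change of the ligands and receptors was 0.17 in control and 0.30 in BPA ewes, beside -0.01 and 0.02 for all genes. The 4 genes SLIT2, NRP2, UNC5B and PLXNA2 were called in both, which is 36.4% of the 11 and 80.0% of the 5. Of the 52 genes tested in both, 39 had the same sign. The shares called in both and of the same sign were not computed over all genes. Neither can therefore be read as particular to the ligands and receptors. The count in control ewes was 7 without VAT 902, 6 without VAT 928, 7 without SAT 931 and 4 without SAT 902 and 924 together (SLIT2, NRP2, PLXNA2 and UNC5C). The count in BPA ewes was 9 without VAT 977, and 3 without SAT 918 or without SAT 922 (SLIT2, NRP2 and UNC5B each time). Shares of all genes called in these reduced fits are not set beside the counts. A change in a count cannot be read as particular to the ligands and receptors. In bulk fat, fewer cells of a type and less RNA per cell cannot be told apart.

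**Figure D2:**
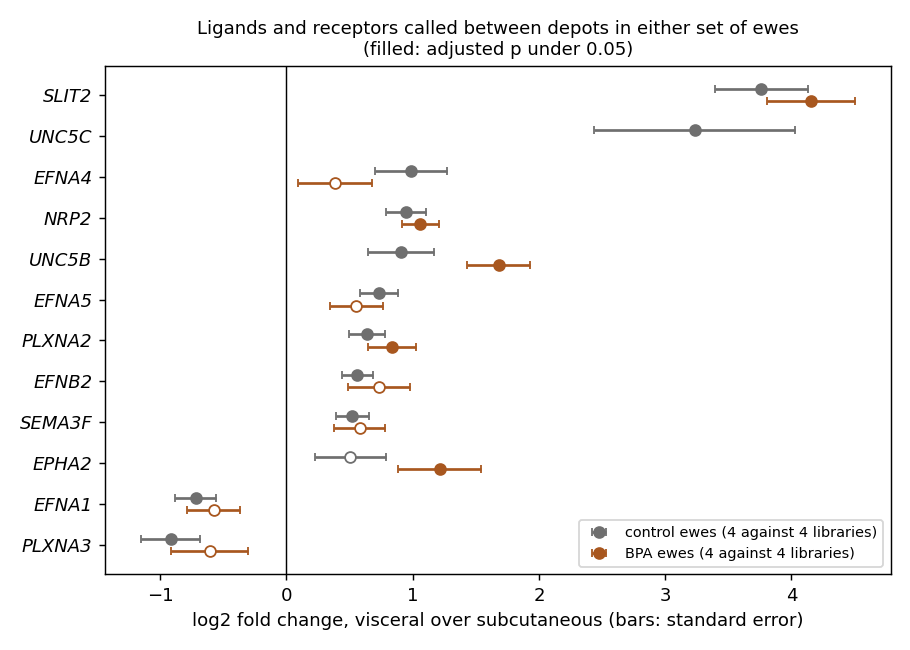
Log2 fold change of VAT over SAT for the 12 genes called in either comparison, in control ewes (grey) and BPA ewes (brown), with bars of the standard error; filled points were called at an adjusted p under 0.05. SLIT2 lies near 4 in both sets of ewes, UNC5C passed the count filter in control ewes only, and EFNA1 and PLXNA3 lie below 0.

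SLIT2, a secreted ligand of robos such as ROBO1, had the lowest p of the family set in both comparisons. Its level in SAT control was 31.5, 9.31, 8.95 and 12.1 CPM, and in VAT control 219, 167, 214 and 239 CPM. In SAT BPA it was 7.02, 10.6, 15.3 and 14.6 CPM, and in VAT BPA 247, 170.2, 303 and 122 CPM. Every VAT library lay above every SAT library, and SAT control 902 was the highest of the SAT libraries. SLIT2 was 13.6-fold higher in VAT of control ewes (log2 fold change 3.76 ± 0.37 SE, edgeR adjusted p = 0.000231) and 17.8-fold higher in BPA ewes (log2 fold change 4.15 ± 0.35 SE, edgeR adjusted p = 0.000296). It was called under every alternative run, with log2 fold changes of 3.57 to 4.38 in control and 3.93 to 4.48 in BPA ewes. Without VAT BPA 977, the library rich in mesothelial markers, the value in BPA ewes was 3.93. In control ewes 3 of 10 adipocyte markers were also called higher in VAT and 2 of 8 stromal progenitor markers lower. The part of the mesothelial, adipocyte and stromal markers in the depot difference was not tested.

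SLIT3, the other abundant slit, was level between depots. It ranged from 56.5 to 76.0 CPM in SAT control, 39.6 to 96.7 in SAT BPA, 57.3 to 94.6 in VAT control and 49.8 to 86.1 in VAT BPA. The groups overlapped, and SLIT3 was not called in control (0.11 ± 0.18 SE, edgeR adjusted p = 0.72) or in BPA ewes (0.32 ± 0.29 SE, edgeR adjusted p = 0.51). The slit with the higher level differed by depot. Per kilobase, SLIT2 stood at 1.65 to 2.44 times SLIT3 in VAT control and at 1.13 to 3.24 times in VAT BPA, but at 0.0769 to 0.364 times in SAT control and 0.0717 to 0.220 times in SAT BPA. SLIT2 made up 66.4 ± 3.79% (SD, n = 4) of slit signal in VAT control and 64.5 ± 10.5% in VAT BPA, against 13.4 ± 9.03% in SAT control and 13.1 ± 5.54% in SAT BPA.

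None of the robos was called between depots. ROBO4 was at 115, 138, 161 and 101 CPM in SAT control, 164, 111, 159 and 214 in SAT BPA, 157, 149, 199 and 168 in VAT control and 167, 222, 196 and 119 in VAT BPA. The groups overlapped, with 0.39 ± 0.16 SE, edgeR adjusted p = 0.139 in control and 0.11 ± 0.24 SE, edgeR adjusted p = 0.795 in BPA ewes. ROBO1, the broadly expressed slit receptor, averaged 13.1 ± 3.32 CPM (SD, n = 4) in SAT control, 13.8 ± 6.55 in SAT BPA, 20.1 ± 3.47 in VAT control and 20.6 ± 7.37 in VAT BPA. Its estimate in control ewes was 0.63 ± 0.21 SE, edgeR adjusted p = 0.0747, and it was called there with the animal number as a block and without SAT 928. ROBO2 ranged from 2.34 to 10.5 CPM in SAT control and from 3.34 to 20.4 in VAT control, and the 4 values of each group overlapped widely.

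**Figure D3:**
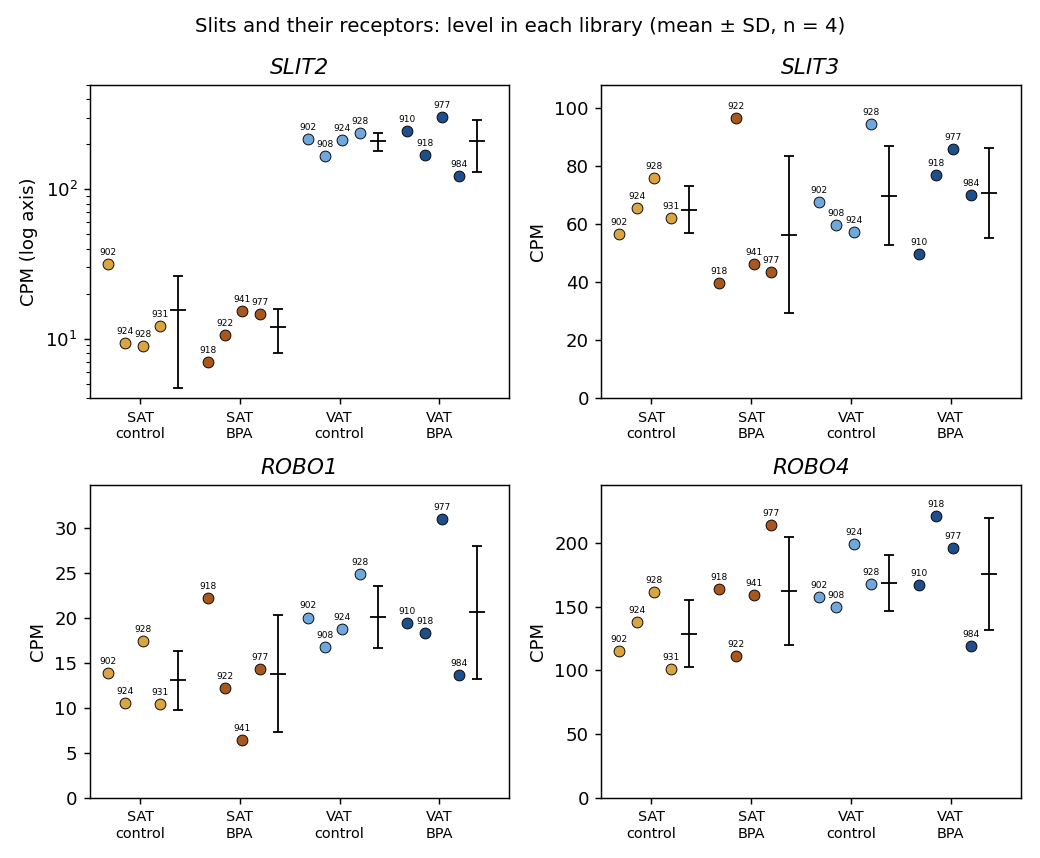
Level of SLIT2 (log axis), SLIT3, ROBO1 and ROBO4 in CPM in each library, labelled by replicate number, with mean ± SD (n = 4) beside each group. All 8 VAT libraries lie at or above 122 CPM of SLIT2 and all 8 SAT libraries at or below 31.5, while the groups overlap for SLIT3 and ROBO4.

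Among the netrins, only NTN1 and NTN4 had enough counts to be tested, and neither was called between depots. NTN1 was at 181, 105, 289.6 and 118 CPM in SAT control and 156, 56.7, 111 and 117 in VAT control, and at 209, 209, 60.8 and 180.5 in SAT BPA and 105, 128, 97.8 and 68.7 in VAT BPA. The spread within SAT was wide, and the groups overlapped. The estimates were below 0 in control (-0.65 ± 0.34 SE, edgeR adjusted p = 0.231) and BPA ewes (-0.73 ± 0.34 SE, edgeR adjusted p = 0.194). In BPA ewes NTN1 passed the threshold when SAT BPA 941, its lowest SAT library, was left out (edgeR adjusted p = 0.0384). NTN4, a netrin of basement membranes, had estimates of -0.36 ± 0.33 SE, edgeR adjusted p = 0.496 in control and -0.13 ± 0.47 SE, edgeR adjusted p = 0.891 in BPA ewes.

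Both UNC5 receptors with enough counts were higher in VAT, where the NTN1 estimates were below 0. UNC5B, a netrin receptor known from endothelium, was at 29.3, 17.4, 28.7 and 12.3 CPM in SAT control and 49.0, 31.6, 39.1 and 44.7 in VAT control. In BPA ewes it was at 19.4, 10.8, 8.52 and 17.1 CPM in SAT and 47.7, 47.7, 38.3 and 47.1 in VAT. The VAT and SAT libraries did not overlap in either set of ewes. UNC5B was 1.87-fold higher in VAT of control ewes (log2 fold change 0.91 ± 0.26 SE, edgeR adjusted p = 0.0423) and 3.21-fold higher in BPA ewes (log2 fold change 1.68 ± 0.25 SE, edgeR adjusted p = 0.00497). In BPA ewes it was called under every alternative, while in control ewes the call was lost without VAT 902, 924 or 928 or SAT 924 or 931 (edgeR adjusted p of 0.103, 0.0614, 0.105, 0.104 and 0.0683). Endothelial markers summed to 3034 to 3450.3 CPM in VAT control against 1970.0 to 3178 in SAT control, and to 2777 to 2985 in VAT BPA against 1932 to 2778 in SAT BPA; of 10 tested, 2 were called higher in VAT of control ewes and 1 in BPA ewes. Their part in the UNC5B difference was not tested.

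UNC5C, another repulsive netrin receptor, was near 0 in SAT. It was at 0.936, 0, 0.157 and 0.205 CPM in SAT control and at 0 in all 4 SAT BPA libraries. VAT control held 5.53, 4.64, 1.64 and 1.30 CPM, and VAT BPA 3.02, 3.08, 41.9 and 0.905 CPM. The highest value was that of VAT BPA 977, the library with the most mesothelial markers. In control ewes UNC5C was called higher in VAT (log2 fold change 3.23 ± 0.80 SE, edgeR adjusted p = 0.0236), with a fitted fold that rests on 8 counts in SAT. That call was lost without SAT 924, 928 or 931 (edgeR adjusted p of 0.0575, 0.0624 and 0.0524), and in a fit of all 16 libraries (edgeR adjusted p = 0.122). With any of the VAT libraries left out, or at equal totals in every library, UNC5C fell below the count filter. In BPA ewes too few libraries reached the level that the count filter asks for, except when VAT 984 was left out, where UNC5C was called. Against a floor of 3 counts over the SAT BPA group, the 345 pooled counts in VAT BPA stood at 52.3 times that floor. Library 977 gave 279 of the 345, so the value rests mostly on that library and does not cover the spread between libraries. DCC, the attractive netrin receptor, averaged 5.03 ± 4.22 CPM (SD, n = 4) in SAT control and 7.56 ± 1.65 in VAT control and was not called (0.61 ± 0.57 SE, edgeR adjusted p = 0.499). UNC5D, a further UNC5 receptor, was at 0 to 0.862 CPM in SAT control and 1.12 to 4.27 in VAT control, and was too low to be tested between depots; it was called in control ewes without SAT 924.

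**Figure D4:**
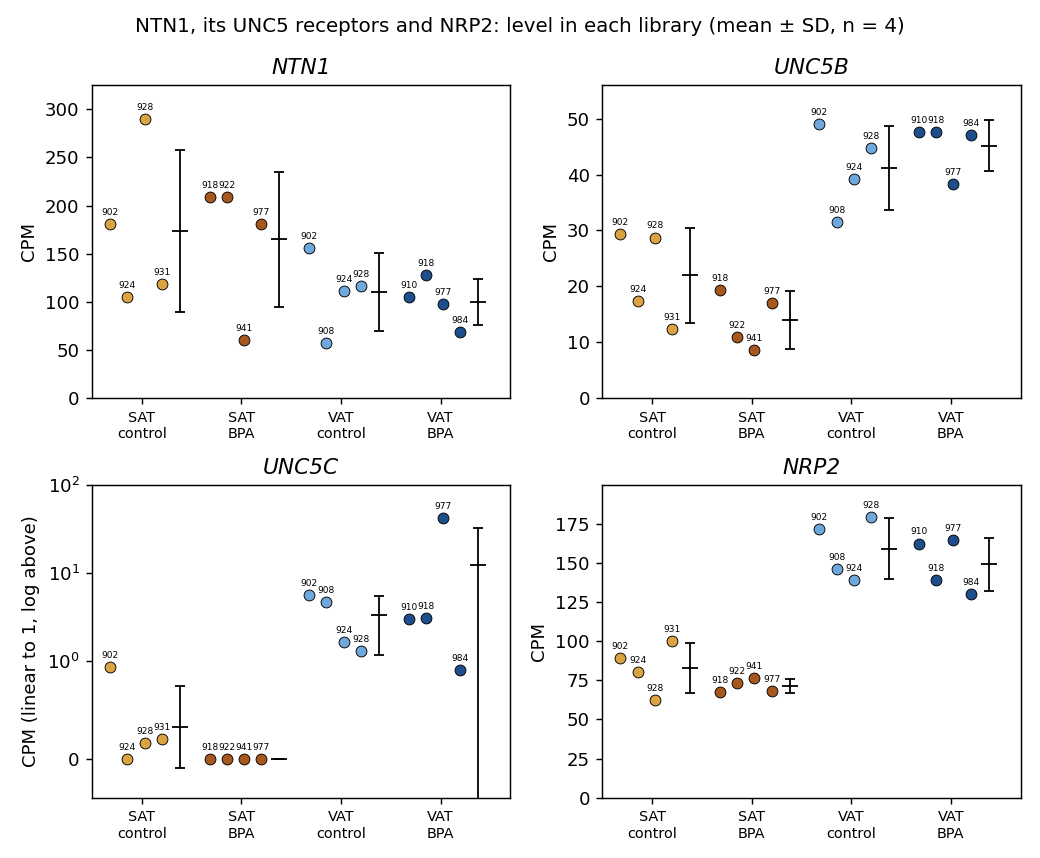
Level of NTN1, UNC5B, UNC5C and NRP2 in CPM in each library, labelled by replicate number, with mean ± SD (n = 4) beside each group; the UNC5C axis is linear up to 1 and logarithmic above, and its lower SD in VAT BPA falls below the axis. UNC5B and NRP2 show no overlap between depots, and UNC5C reads 41.9 in VAT BPA 977.

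Of the 20 semaphorins, 1 of 20 tested was called in control ewes and 0 of 19 in BPA ewes. Of all genes, 13.3% and 9.07% were called there. The called ligand was SEMA3F, a secreted repellent that acts through NRP2, and it was picked out after its values were seen. It was at 66.0, 59.2, 64.7 and 50.01 CPM in SAT control and 91.8, 77.9, 91.9 and 81.5 in VAT control, without overlap. Levels in BPA ewes were 78.8, 53.8, 43.5 and 70.1 in SAT and 89.2, 99.1, 104 and 76.3 in VAT, where SAT 918 reached into the VAT range. SEMA3F was 1.44-fold higher in VAT of control ewes (log2 fold change 0.52 ± 0.13 SE, edgeR adjusted p = 0.0237), and its estimate in BPA ewes was of like size but not called (0.58 ± 0.20 SE, edgeR adjusted p = 0.0958). The control call was lost without VAT 902, 924 or 928 or SAT 931 (edgeR adjusted p of 0.067, 0.0506, 0.0512 and 0.0538), and in a fit of all 16 libraries (edgeR adjusted p = 0.0601).

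SEMA3B, the semaphorin with the highest level per kilobase and, of the 66 genes, the closest neighbour of SEMA3F in the deposited gene models, was at 105, 117, 63.7 and 57.2 CPM in SAT control and 116, 83.7, 149 and 83.8 in VAT control. BPA ewes held 43.3, 79.1, 108 and 51.9 in SAT and 89.8, 124, 182 and 74.5 in VAT. Its groups overlapped in both sets of ewes, with 0.34 ± 0.26 SE, edgeR adjusted p = 0.41 in control and 0.74 ± 0.33 SE, edgeR adjusted p = 0.186 in BPA ewes. The class 3 ligands as a whole had 4 of 7 estimates above 0 in control ewes and 5 of 6 in BPA ewes. The transmembrane class 6 ligands had 3 of 4 estimates below 0 in control ewes and 4 of 4 in BPA ewes. Among them SEMA6C, at 3.93 to 5.53 CPM in VAT control and 6.86 to 8.80 in SAT control, did not overlap in control ewes but missed the threshold (-0.73 ± 0.24 SE, edgeR adjusted p = 0.0666). SEMA6D, at 23.5 to 30.5 CPM in VAT BPA and 34.4 to 40.5 in SAT BPA, did so in BPA ewes (-0.46 ± 0.16 SE, edgeR adjusted p = 0.0921). SEMA4A, a class 4 ligand of immune cells, had the lowest control estimate of the semaphorins (-1.69 ± 0.57 SE, edgeR adjusted p = 0.0736), and its highest SAT value was 12.6 CPM in SAT control 924, a library high in lymphocyte markers. SEMA4A was called lower there with the animal number as a block and without VAT 924.

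The semaphorin co-receptor NRP2 was higher in VAT and its relative NRP1 was not called. NRP2, which also binds the lymphatic growth factor VEGF-C, was at 88.9, 80.2, 62.2 and 100.2 CPM in SAT control and 172, 146, 139 and 179 in VAT control. In BPA ewes it was at 67.5, 73.2, 76.4 and 68.3 CPM in SAT and 162, 139, 165 and 130.3 in VAT. All 8 VAT libraries exceeded all 8 SAT libraries. NRP2 was 1.93-fold higher in VAT of control ewes (log2 fold change 0.95 ± 0.16 SE, edgeR adjusted p = 0.00474) and 2.09-fold higher in BPA ewes (log2 fold change 1.06 ± 0.15 SE, edgeR adjusted p = 0.00397), and it was called under every alternative run in both. Lymphatic endothelial markers, 6 in number, summed to 64.9 to 99.3 CPM in VAT control and 138 to 257 in SAT control, and 4 of the 6 were called lower in VAT there. In BPA ewes they summed to 61.1 to 136 CPM in VAT and 81.9 to 134 in SAT, and 0 of the 6 were called. Mesothelial marker sums were also higher in VAT in both sets of ewes. In control ewes 3 of 10 adipocyte and 2 of 10 endothelial markers were called higher in VAT, and in BPA ewes 0 and 1. Within VAT BPA the mesothelial sums ran from 31.6 to 344 CPM, and NRP2 from 130.3 to 165. The part of these markers in the NRP2 difference was not tested. Without VAT BPA 977 the NRP2 value in BPA ewes was 1.01. NRP1 was at 633, 483, 622 and 460.3 CPM in SAT control and 686, 520.3, 739 and 694 in VAT control, at 512 to 587 in SAT BPA and 499 to 675 in VAT BPA, with 0.27 ± 0.16 SE, edgeR adjusted p = 0.288 and 0.07 ± 0.15 SE, edgeR adjusted p = 0.823.

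Plexins, the signalling receptors of the semaphorins, went in both directions. PLXNA2, a receptor for class 3 and class 6 semaphorins, was at 94.2, 94.0, 97.2 and 65.8 CPM in SAT control and 130.4, 129.8, 148 and 136 in VAT control. Levels in BPA ewes were 94.9, 72.1, 73.4 and 109 CPM in SAT and 119, 171, 175 and 160.1 in VAT. The depots did not overlap in either set. PLXNA2 was 1.55-fold higher in VAT of control ewes (log2 fold change 0.64 ± 0.14 SE, edgeR adjusted p = 0.0156), under every alternative, and 1.78-fold higher in BPA ewes (log2 fold change 0.83 ± 0.19 SE, edgeR adjusted p = 0.0245). The call in BPA ewes was lost without VAT 918 or SAT 918, 922 or 941 (edgeR adjusted p of 0.0579, 0.0513, 0.0851 and 0.0748).

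PLXNA3, the partner of NRP2 in SEMA3F signalling, was lower in VAT. It was at 42.3, 68.1, 44.3 and 48.4 CPM in SAT control and 30.7, 20.1, 37.1 and 19.2 in VAT control, without overlap. BPA ewes held 43.3, 56.7, 53.7 and 45.8 CPM in SAT and 19.4, 30.7, 57.5 and 23.9 in VAT, where library 977 lay above every SAT library. SAT levels were 1.89-fold those of VAT in control ewes (log2 fold change -0.92 ± 0.24 SE, edgeR adjusted p = 0.0285), and the estimate in BPA ewes was -0.61 ± 0.30 SE, edgeR adjusted p = 0.226. Without VAT BPA 977 that estimate was -1.02 and passed the threshold (edgeR adjusted p = 0.0109). The control call was lost without VAT 908 or 928 or SAT 924 (edgeR adjusted p of 0.075, 0.0812 and 0.0704), and in a fit of all 16 libraries (edgeR adjusted p = 0.0536). SEMA3F, NRP2 and PLXNA2 were thus higher in VAT of control ewes while PLXNA3 was lower.

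The most abundant plexins did not pass the test. PLXNB2 was at 280.5, 298, 206 and 250.5 CPM in SAT control, 222, 137, 258 and 166 in VAT control, 259, 265, 238 and 237 in SAT BPA and 242, 219, 349 and 125 in VAT BPA. Its groups overlapped (-0.40 ± 0.20 SE, edgeR adjusted p = 0.208 in control and -0.09 ± 0.26 SE, edgeR adjusted p = 0.847 in BPA ewes). PLXND1 averaged 230.4 ± 57.5 CPM (SD, n = 4) in SAT control and 279.5 ± 84.3 in VAT control (0.28 ± 0.24 SE, edgeR adjusted p = 0.452). PLXNA4, a receptor of SEMA3A and class 6 semaphorins, ranged from 117 to 293 CPM in SAT control and from 223 to 337 in VAT control (0.22 ± 0.25 SE, edgeR adjusted p = 0.588). PLXNC1, the receptor of SEMA7A on immune cells, had estimates of opposite sign in control (-0.99 ± 0.46 SE, edgeR adjusted p = 0.181) and BPA ewes (1.15 ± 0.40 SE, edgeR adjusted p = 0.0943), and it was called lower in VAT of control ewes without SAT 928.

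Of 7 ephrins tested, 4 were called in control ewes, where 13.3% of all genes were, and 0 of 7 in BPA ewes, where 9.07% of all genes were. EFNA5, a lipid-anchored ligand of several EPHA receptors, was at 68.0, 54.3, 47.7 and 74.2 CPM in SAT control and 101, 103, 108 and 91.4 in VAT control. EFNB2, the arterial ephrin, was at 65.4, 63.7, 71.4 and 63.9 CPM in SAT control and 106, 83.7, 93.6 and 105 in VAT control. Neither overlapped between depots in control ewes. EFNA5 was 1.66-fold higher in VAT (log2 fold change 0.73 ± 0.15 SE, edgeR adjusted p = 0.0114) and EFNB2 1.48-fold higher (log2 fold change 0.56 ± 0.12 SE, edgeR adjusted p = 0.0142). Both were called without any of the 8 libraries in turn, but not without SAT 902 and 924 together (edgeR adjusted p = 0.0542 and 0.0855). EFNB2 was not called in a fit of all 16 libraries (edgeR adjusted p = 0.0791).

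In BPA ewes EFNA5 was at 54.1, 71.2, 45.2 and 62.7 CPM in SAT and 107, 86.5, 58.4 and 91.5 in VAT, and EFNB2 at 68.3, 46.6, 42.6 and 51.7 in SAT and 127, 84.0, 57.6 and 80.5 in VAT. VAT BPA 977 was the lowest VAT library for both and lay within the SAT range. The estimates were 0.55 ± 0.21 SE, edgeR adjusted p = 0.119 for EFNA5 and 0.74 ± 0.24 SE, edgeR adjusted p = 0.0826 for EFNB2. Without VAT BPA 977 both passed the threshold, at 0.70 (edgeR adjusted p = 0.0262) and 0.89 (edgeR adjusted p = 0.0238).

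EFNA1 and EFNA4, ligands of the same receptor class, differed in opposite directions. EFNA1, an inducible ligand of EPHA2, was at 30.9, 34.8, 35.6 and 33.6 CPM in SAT control and 24.4, 22.0, 19.9 and 15.4 in VAT control. In BPA ewes it was at 25.6, 32.1, 30.0 and 29.2 CPM in SAT and 25.0, 16.9, 22.2 and 14.4 in VAT. VAT was below SAT without overlap in both sets. EFNA1 in SAT stood at 1.65 times its VAT level in control ewes (log2 fold change -0.72 ± 0.16 SE, edgeR adjusted p = 0.017), and its estimate in BPA ewes was not called (-0.58 ± 0.21 SE, edgeR adjusted p = 0.106). EFNA4 was at 6.24, 5.86, 7.38 and 4.30 CPM in SAT control and 13.2, 6.54, 13.5 and 14.01 in VAT control, where VAT 908 lay within the SAT range. It was 1.98-fold higher in VAT of control ewes (log2 fold change 0.99 ± 0.28 SE, edgeR adjusted p = 0.0426), and in BPA ewes, at 6.81, 7.68, 7.64 and 9.66 CPM in SAT and 6.70, 9.01, 10.5 and 15.2 in VAT, it was not called (0.38 ± 0.29 SE, edgeR adjusted p = 0.435). The control call of EFNA4 was lost without VAT 902, 924 or 928 and without SAT 902, 924, 928 or 931 (edgeR adjusted p of 0.0994, 0.0813, 0.115, 0.0729, 0.0894, 0.0505 and 0.0872), and at equal totals in every library (edgeR adjusted p = 0.0683). In the deposited gene models EFNA1 and EFNA4 lie 56.8 kb apart on the same strand, with EFNA3, which was near 0, between them.

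EFNB1, the most abundant ephrin per kilobase, was at 70.2, 58.1, 88.4 and 61.9 CPM in SAT control and 87.7, 102, 88.0 and 98.3 in VAT control, and at 88.7, 65.8, 74.6 and 91.7 in SAT BPA and 71.7, 130.3, 67.7 and 138 in VAT BPA. SAT control 928 lay within the VAT range. Its estimate was 0.44 ± 0.15 SE, edgeR adjusted p = 0.0748 in control ewes, 0.58 and past the threshold without SAT 928 (edgeR adjusted p = 0.0328), and 0.34 ± 0.25 SE, edgeR adjusted p = 0.408 in BPA ewes.

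EPH receptors contributed 0 of 8 tested in control ewes and 1 of 7 in BPA ewes. Of all genes, 13.3% and 9.07% were called there. EPHA3, listed by gene number, is outside these counts. It was lower in VAT of control ewes (log2 fold change -2.38 ± 0.59 SE, edgeR adjusted p = 0.0241). The receptor called in BPA ewes was EPHA2, known from epithelium and vessels. It was at 26.8, 22.6, 41.9 and 14.3 CPM in SAT control and 45.8, 27.2, 39.4 and 37.9 in VAT control, and at 25.4, 17.2, 23.2 and 28.5 in SAT BPA and 31.4, 35.3, 89.9 and 63.0 in VAT BPA. In BPA ewes the depots did not overlap, and VAT 977 was the highest library. EPHA2 was 2.32-fold higher in VAT of BPA ewes (log2 fold change 1.22 ± 0.33 SE, edgeR adjusted p = 0.0444), and its estimate in control ewes was 0.51 ± 0.28 SE, edgeR adjusted p = 0.249. The call was lost without VAT 984 or any of the 4 SAT libraries in turn (edgeR adjusted p of 0.091 without VAT 984 and 0.0843, 0.133, 0.104 and 0.0715 without SAT 918, 922, 941 and 977), while without VAT 977 the log2 fold change was 0.87 (edgeR adjusted p = 0.0492). EPHB4, the venous partner of EFNB2, was at 133, 78.1, 129 and 82.0 CPM in SAT control and 113, 80.2, 117 and 104 in VAT control, and at 85.2, 92.7, 81.9 and 108 in SAT BPA and 79.4, 108, 96.3 and 140.5 in VAT BPA. It overlapped throughout (-0.02 ± 0.20 SE, edgeR adjusted p = 0.955 in control and 0.21 ± 0.19 SE, edgeR adjusted p = 0.52 in BPA ewes). The remaining tested EPH receptors, EPHA1 in control ewes only and EPHA4, EPHB1, EPHB2, EPHB3 and EPHB6 in both, were not called.

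BPA against control within a depot called none of the ligands and receptors. In SAT 0 of 52 tested passed, where edgeR called 0.709% of 13535 genes, and 7 had an unadjusted p under 0.05 (14.2% of all genes did). DESeq2 called 2 of them, SEMA3C and PLXNC1, and 464 of all genes, where edgeR called 96. The median log2 fold change of BPA over control was -0.05, beside -0.01 for all genes. In 4 genes (SEMA3C, NTN4, SEMA3E and EPHA4) every BPA library lay below every control library, where 3.18% of all genes did so, and in 0 genes every BPA library lay above (4.27% of all genes); 7.45% of all genes did not overlap in either direction.

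Of the 5 genes of smallest p in SAT, 3 code for secreted ligands (SEMA3C, NTN4 and SEMA3A), and none of the 5 was called. SEMA3C, a semaphorin known as a factor secreted by human fat cells, was at 147, 89.7, 106 and 74.6 CPM in SAT control and 66.0, 56.3, 62.3 and 50.1 in SAT BPA. All 4 BPA libraries lay below all 4 control libraries. Its log2 fold change was -0.82 ± 0.20 SE, edgeR adjusted p = 0.102 (unadjusted p = 0.00169). It passed the threshold without SAT control 931, the lowest control (-0.95, edgeR adjusted p = 0.049). NTN4 was at 60.7, 34.8, 36.3 and 46.5 CPM in SAT control and 30.5, 22.4, 14.4 and 31.5 in SAT BPA, again without overlap (-0.84 ± 0.25 SE, edgeR adjusted p = 0.179). SEMA3A, the classical repellent acting through NRP1, was at 14.8, 14.8, 9.26 and 13.9 and 8.87, 6.33, 10.3 and 4.72 CPM (-0.81 ± 0.28 SE, edgeR adjusted p = 0.239). Here the groups overlapped, since control 928 lay among the BPA libraries.

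The other two genes, PLXNC1 and PLXNB1, code for receptors of class 7 and class 4 semaphorins. PLXNC1 was at 45.9, 63.0, 8.48 and 20.5 CPM in SAT control and 8.05, 7.23, 16.4 and 8.54 in SAT BPA (-1.79 ± 0.54 SE, edgeR adjusted p = 0.179). Its high values were those of controls 902 and 924, the libraries high in lymphocyte markers, and without both the estimate was -0.52. PLXNB1, the receptor of SEMA4D, was at 22.8, 30.9, 28.7 and 38.3 CPM in SAT control and 41.5, 47.2, 47.3 and 37.3 in SAT BPA, with the only estimate above 0 among the 5 genes of smallest p (0.53 ± 0.18 SE, edgeR adjusted p = 0.222). Stromal progenitor markers summed to 2679.8 to 4072 CPM in SAT control and 1439 to 2409 in SAT BPA, with 1 of 8 called lower, and macrophage markers to 442 to 604 and 249 to 383 CPM, with 1 of 6 called lower. The part of either list in these values was not tested.

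In VAT 0 of 58 tested genes were called, where edgeR called 0% of 14774 genes, and 2 had an unadjusted p under 0.05 (7.47% of all genes did). DESeq2 called 0 of them as well. The median log2 fold change was 0.04, beside 0.00 for all genes, and the groups overlapped in every gene tested, while 4.02% of all genes did not overlap, 2.06% with BPA higher and 1.96% with BPA lower. SEMA4D, a semaphorin of lymphocytes, was at 5.89, 5.31, 9.07 and 7.98 CPM in VAT control and 8.26, 9.93, 31.5 and 7.62 in VAT BPA (1.01 ± 0.45 SE, edgeR adjusted p = 0.658, unadjusted p = 0.0479). PLXNB1 was at 24.8, 22.1, 22.1 and 19.9 and 23.1, 28.4, 55.8 and 23.6 CPM (0.56 ± 0.28 SE, edgeR adjusted p = 0.658), and SEMA4C, the ligand of PLXNB2, at 39.2, 29.2, 36.6 and 30.9 and 33.7, 37.6, 77.4 and 40.6 CPM (0.48 ± 0.26 SE, edgeR adjusted p = 0.658). In all 3 the highest value was that of VAT BPA 977. Without it the log2 fold changes were 0.27 for SEMA4D, 0.16 for PLXNB1 and 0.13 for SEMA4C. SEMA3E, the ligand of PLXND1, was near its detection limit at 3.03, 1.71, 0.518 and 1.96 CPM in VAT control and 0.447, 1.25, 0 and 0.377 in VAT BPA (-1.75 ± 0.79 SE, edgeR adjusted p = 0.658). EPHB6, a kinase-dead EPH receptor, was at 5.71, 4.45, 2.76 and 3.18 and 6.59, 10.5, 9.002 and 2.64 CPM (0.82 ± 0.43 SE, edgeR adjusted p = 0.658).

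**Figure D5:**
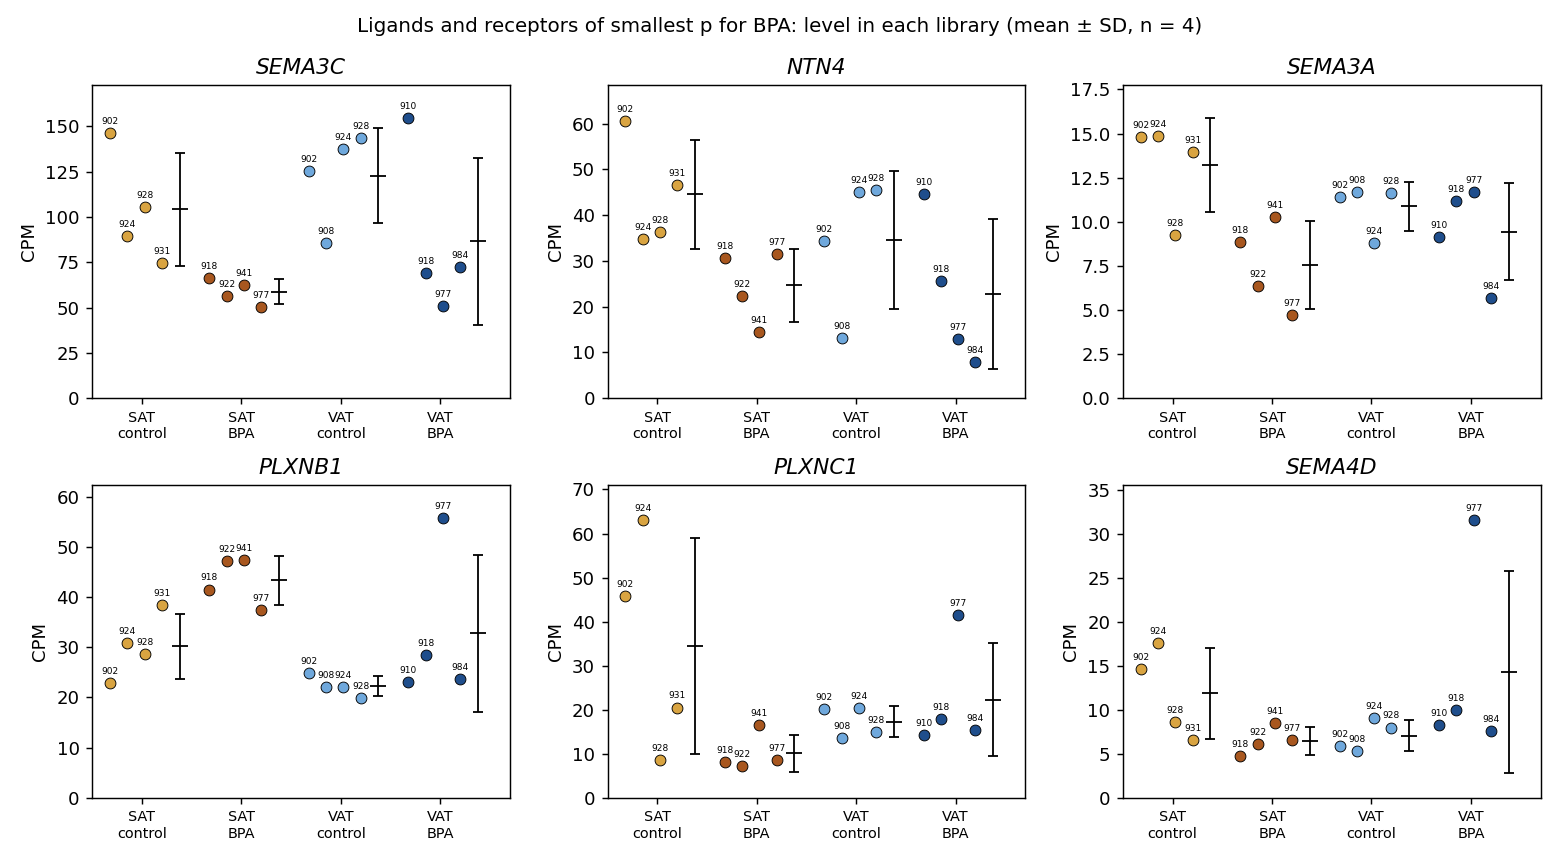
Level of SEMA3C, NTN4, SEMA3A, PLXNB1, PLXNC1 and SEMA4D in CPM in each library, labelled by replicate number, with mean ± SD (n = 4) beside each group. SAT BPA lies below SAT control without overlap for SEMA3C and NTN4, and VAT BPA 977 is the highest VAT library for PLXNB1, PLXNC1 and SEMA4D.

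The difference between the BPA effects of both depots was tested directly over all 16 libraries, as the effect in VAT minus that in SAT. Of 56 genes tested 0 were called, where edgeR called 0% of 14793 genes, and 3 had an unadjusted p under 0.05 (6.2% of all genes did). DESeq2 called 0. The smallest p were those of PLXNC1 (2.15 ± 0.68 SE, edgeR adjusted p = 0.649) and SEMA4D (1.89 ± 0.61 SE, edgeR adjusted p = 0.649). PLXNC1 was at 34.4 ± 24.6 CPM (SD, n = 4) in SAT control, 10.1 ± 4.29 in SAT BPA, 17.3 ± 3.50 in VAT control and 22.3 ± 12.8 in VAT BPA. For both genes the SAT controls 902 and 924 and VAT BPA 977 held the high values, and the same libraries held the most lymphocyte markers. Without VAT BPA 977 the values were 1.67 for PLXNC1 and 1.17 for SEMA4D, and without both SAT controls 0.89 and 1.25. SEMA4A followed at 4.84, 12.6, 2.98 and 2.87 CPM in SAT control, 1.44, 0.904, 4.11 and 4.50 in SAT BPA, 1.43, 1.04, 3.54 and 1.14 in VAT control and 2.79, 2.97, 3.90 and 2.87 in VAT BPA (1.90 ± 0.80 SE, edgeR adjusted p = 0.745). UNC5B (0.78 ± 0.38 SE, edgeR adjusted p = 0.835) had lower mean levels with BPA in SAT (21.9 ± 8.45 to 13.96 ± 5.12 CPM) and higher in VAT (41.1 ± 7.53 to 45.2 ± 4.63 CPM). The fitted value of UNC5C (6.33 ± 3.22 SE, edgeR adjusted p = 0.841) depends on the prior count, since SAT BPA was at 0.

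Genes that act with or below these receptors were counted in a list of 69 in the table, such as small GTPases, ROCK kinases, actin regulators and FLRT ligands. In control ewes 6 of 59 tested were called higher in VAT and 1 lower, and in BPA ewes 3 of 58 higher and 0 lower, with medians of 0.03 and 0.23. These shares of 11.9% and 5.17% were below the 13.3% and 9.07% called among all genes. RRAS, a small GTPase that plexins inactivate, was at 68.2, 34.3, 53.7 and 56.0 CPM in SAT control and 97.8, 115, 91.8 and 111 in VAT control, and was called in control (0.98 ± 0.19 SE, edgeR adjusted p = 0.00823) and BPA ewes (1.21 ± 0.29 SE, edgeR adjusted p = 0.0289). ENAH, an actin regulator that binds the tail of ROBO1, was likewise called in control (0.77 ± 0.17 SE, edgeR adjusted p = 0.0164) and in BPA ewes (1.05 ± 0.19 SE, edgeR adjusted p = 0.0119). ABLIM3, an actin-binding LIM protein (0.87 ± 0.15 SE, edgeR adjusted p = 0.00551), and ROCK1, a kinase that acts on the actin skeleton (0.61 ± 0.14 SE, edgeR adjusted p = 0.0153), were called in control ewes, where ROCK2 and RHOA were also higher and FARP2 lower. RHOA was called in BPA ewes (0.63 ± 0.14 SE, edgeR adjusted p = 0.0248). In control ewes the ENAH call was lost without VAT 928 (edgeR adjusted p = 0.0527). In BPA ewes the RRAS call was lost without VAT 910 or 984 or SAT 918, 922 or 941 (edgeR adjusted p of 0.0644, 0.0632, 0.0544, 0.0952 and 0.0809), and the RHOA call without VAT 910 or 984 or any SAT library (edgeR adjusted p of 0.0525, 0.0525, 0.0565, 0.0838, 0.0747 and 0.0534).

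Between BPA and control ewes 1 gene of that list was called in SAT, from 57 tested, and 0 of 62 in VAT. Of all genes, 0.709% of 13535 were called in SAT and 0% of 14774 in VAT. FLRT2, a membrane protein that serves as a repulsive ligand of UNC5 receptors, was at 165, 108, 148 and 125 CPM in SAT control and 72.6, 76.6, 68.1 and 58.7 in SAT BPA. Every BPA library lay below every control library, as in 3.18% of all genes tested. SAT control levels were 1.97-fold those of SAT BPA (log2 fold change -0.98 ± 0.16 SE, edgeR adjusted p = 0.0212). The call was lost without SAT control 902 or 928 or SAT BPA 922, 941 or 977 (edgeR adjusted p of 0.0779, 0.0592, 0.0554, 0.0698 and 0.0552). It was also lost without SAT controls 902 and 924 together (edgeR adjusted p = 0.115) and when genes shorter than 200 bases were left out of the fit (edgeR adjusted p = 0.114). The difference of BPA effects between depots called 0 of 60, and 0% of all 14793 genes.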

How the data were processed

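Raw counts of 28524 genes in 16 libraries were deposited. RNA was depleted of ribosomal RNA and entered a low-input library kit, per the labels' protocols. FastQC 0.11.5, MultiQC 0.9, STAR 2.6.0c and featureCounts of Subread 1.6.1 were used, per the submitters' processing notes. Since build, annotation and strandedness were not given in the sources used here, no positions are printed, and reads of overlapping antisense genes cannot be told apart (SEMA4C, 10.1% of its length, and SEMA4D, 2.57%, share exon bases with a gene on the opposite strand). The table's name calls the values normalized, but the deposited values are whole-number counts with totals that differ, and they were treated as raw counts. The deposited gene length, in bases, served for levels per kilobase.

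Counts were filtered with filterByExpr (10 counts, 15 in total), scaled with TMM and tested with the two-sided quasi-likelihood test of edgeR 4.0.16 in R 4.3.3, on the 8 libraries of each comparison and on all 16 for the difference of BPA effects, with Benjamini-Hochberg adjustment over all genes tested. An adjusted p under 0.05 was called. CPM were scaled with TMM over the 16 libraries. The SE is the log2 fold change over the root of the test's F. The steps were tested on simulated data: of 100 genes changed by 2-fold and 100 by 4-fold, 46.0% and 91.0% were called in the depot comparison of control ewes (14456 genes), 31.0% and 86.0% in BPA ewes (13782 genes), 44.0% and 94.0% for BPA in SAT (13535 genes), 33.0% and 82.0% for BPA in VAT (14774 genes), and 12.0% and 69.0% for the difference (14793 genes). Unchanged genes called were 6, 7, 6, 3 and 1, in that order. No other genes were changed and libraries were drawn independently, so these shares are not detection rates of the real depot tests. There 13.3% and 9.07% of all genes were called.

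Values are given in every library for the called genes (at most the 8 highest and 8 lowest a comparison), for the 5 of smallest p where fewer than 5 were called, and for the highest gene per kilobase of each family. Of the other pathway genes, at most 4 a comparison are named with values. The genes and lists were chosen with earlier results of these data known. All 66 symbols were found in the RefSeq gene table of ARS-UI_Ramb_v3.0.

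Numbers in the titles were checked as animals by correlating, between depots, how libraries of the same number deviate from their group means. The correlation was 0.271, 0.417 and 0.340 for control 902, 924 and 928, and each of these libraries correlated most with its own number. These 3 numbers were taken as pairs, since all 3 correlations were over 0.1. The main depot test in control ewes still left this pairing out, and it entered only as a block among the alternatives. For BPA 918 the correlation was 0.172, also over 0.1, and its libraries also correlated most with each other. For BPA 977 it was -0.005, and its libraries did not. Since 977 did not match, the numbers of BPA ewes were not taken as pairs. Alternatives were DESeq2 1.42.0, its size factors, upper quartile factors, no filter, a filter of 50 counts in 4 libraries, a fit of all 16 libraries, a threshold of 0.10, thinning to the lowest total, blocks on the animal number in edgeR and with limma 3.58.1 (voom, correlation 0.235), each library left out, SAT control 902 and 924 left out together, and, chosen after seeing the data, genes under 200 bases left out.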

Additional observations from a re-analysis of the deposited data

Results flagged for a closer look

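In 15 of 116 sets of 4 libraries (29 genes in 4 groups), a library lay farther from the other 3 than Dixon's 95% limit. Chance passes that limit in about 1 of 20 independent sets. The 29 genes were chosen from results in these same libraries and share them, so 15 of 116 cannot be read against that rate. VAT BPA 977 accounted for 7 of the 15: high for PLXNB1 (55.8 CPM), PLXNC1 (41.4), SEMA4A (3.90), SEMA4C (77.4), SEMA4D (31.5) and UNC5C (41.9), and low for UNC5B (38.3).

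In VAT control, replicate 908 was low for EFNA4 (6.54 CPM) and 924 low for SEMA3A (8.81) and high for SEMA4A (3.54). In SAT control, replicate 902 was high for SLIT2 (31.5 CPM), 931 low for PLXNA2 (65.8) and 928 low for SEMA3A (9.26). In SAT BPA, replicate 941 was high for PLXNC1 (16.4 CPM) and 922 low for SEMA3E (0).

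A further 3 EPHA receptors are listed in the table by gene number and so fall outside the choice by symbol; the RefSeq gene table names them EPHA3 (2060 counts over the 16 libraries), EPHA5 (106) and EPHA6 (119). EPHA3, a receptor of EFNA5, averaged 43.8 ± 46.9 CPM (SD, n = 4) in SAT control, with libraries from 11.9 to 113 CPM, and 8.36 ± 2.34 in VAT control. It averaged 17.5 ± 7.07 CPM in SAT BPA and 7.12 ± 2.97 in VAT BPA. EPHA3 was lower in VAT of control ewes (log2 fold change -2.38 ± 0.59 SE, edgeR adjusted p = 0.0241), and its estimate in BPA ewes was -1.30 ± 0.37 SE (edgeR adjusted p = 0.0514).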

How the results depend on the processing

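SLIT2 and NRP2 were called in both depot comparisons under every alternative run, UNC5B in BPA ewes and PLXNA2 in control ewes. The count of ligands and receptors called in control ewes was 11, and 7 in a fit of all 16 libraries (without EFNB2, SEMA3F, PLXNA3 and UNC5C), 4 without SAT control 902 and 924 together, and 6 to 12 with each library left out. It was 5 in BPA ewes, and 8 with DESeq2, 11 in the fit of all 16, 9 at a threshold of 0.10, and 3 to 9 with each library left out. At equal totals the counts were 9 and 5, with EFNA4 no longer called and UNC5C below the count filter in control ewes. For these depot counts, replicate blocks included, the shares of all genes called under each alternative are not given beside them. A change in a count cannot be read as particular to the ligands and receptors. BPA in SAT gave 0, 2 with DESeq2 and 0 to 1 with each library left out. BPA in VAT and the difference of BPA effects gave 0 throughout. Among uncalled genes the sign turned for EPHB4 in control ewes (-0.02, and -0.15 to 0.10 with each library left out), and in BPA ewes for NRP1 (0.07, and -0.0086 to 0.13), ROBO4 (0.11, and -0.028 to 0.28) and PLXNB2 (-0.09, and -0.36 to 0.11). The causes were not tested. Of all genes, BPA called 96 in SAT, but 464 with DESeq2, 1 without genes under 200 bases and 0 without SAT control 902 and 924.

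With the animal number as a replicate block in edgeR, only numbers found in both depots inform the depot difference. These were 3 in control ewes and 2 in BPA ewes, 918 and 977. The count was then 13 in control ewes, adding ROBO1 and SEMA4A, and 10 in BPA ewes, where the numbers were not taken as pairs. Under that block, from 918 and 977 alone, SEMA3B (1.67, edgeR adjusted p = 0.000224) and NTN1 (-0.79, edgeR adjusted p = 0.029) were called in BPA ewes. The voom block gave 12 and 8, and 0 for both BPA comparisons and their difference. It ended the UNC5C call in control ewes (limma adjusted p = 0.242) and the FLRT2 call in SAT (limma adjusted p = 0.137). Under the edgeR block EPHB4 in control ewes stood at 0.012 and PLXNB2 in BPA ewes at 0.16, and in BPA ewes RRAS (0.37, edgeR adjusted p = 0.378) and RHOA (0.42, edgeR adjusted p = 0.263) were no longer called. Depth limits the low genes most: 8 of the 66 were never tested.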
